A study of Mus musculus with 10 samples.

Results

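The potassium and HCN channel families of the mouse lumbar spinal cord were taken as every gene listed under a symbol of the form Kcn with a letter and a number, or Hcn with a number. The rule found 101 of the 24411 genes listed. They were 40 voltage-gated (Kv) pore genes, 15 inward rectifier (Kir) genes, 14 tandem-pore (K2P) leak channel genes and 4 HCN genes. Another 8 belong to the calcium- or sodium-activated (KCa) family, with Kcnu1 (Slo3) counted there by family. The rest were 16 accessory subunit genes and 4 noncoding RNAs that only share such a symbol. Choosing by symbol used no measured value.

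RNA of spinal cords from paclitaxel-treated mice and from vehicle-treated mice was sequenced in 5 libraries per group. Paclitaxel is a microtubule-stabilising chemotherapy drug that is known for painful neuropathy as a side effect, and the design set the treated cords against the vehicle cords. The labels give no strain, sex, age, dose, schedule or interval before tissue collection. The labels also do not say that each library came from its own animal, so p-values measure the spread between these libraries, which may in part be technical. Each library was made from whole lumbar cord, so a lower value can come from fewer cells of a type or from less RNA per cell, and these cannot be told apart.

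Potassium channels let potassium leave the cell and so bring the membrane back towards rest. Kv channels open on depolarisation and end action potentials, while Kir and K2P channels hold the resting potential. Most KCa channels open on internal calcium or, for Slack and Slick, internal sodium. HCN channels pass a mixed sodium and potassium current that opens on hyperpolarisation and paces repeated firing. In pain research these families are followed because a loss of potassium current or a gain of HCN current makes dorsal root ganglion and dorsal horn neurons fire more readily.

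The subfamilies share one stretch of sequence, the selectivity filter of the pore, where the codons read threonine, any residue, glycine, tyrosine or phenylalanine, glycine. It is shown because it ties the pore genes together by sequence, and separates them from the accessory subunits. The longest complete coding sequence of each gene in GENCODE M21 (GRCm38) was searched in frame, on the coding strand, for ACNNNNGGNTNNGGN, for the cysteine form TGNNNNGGNTNNGGN, and for a serine form that starts with any serine codon. The first codon had to encode the named residue, and the fourth tyrosine or phenylalanine. One line per gene gives 39 bases, 5′ to 3′, with the matched codons in capitals, for members that the results below turn on.
Kcna1: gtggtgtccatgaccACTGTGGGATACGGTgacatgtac
Kcnd2: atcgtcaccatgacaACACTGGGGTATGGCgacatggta
Kcnh8: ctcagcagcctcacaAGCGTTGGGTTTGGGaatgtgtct
Kcnj2: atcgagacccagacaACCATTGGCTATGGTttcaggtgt
Kcnj10: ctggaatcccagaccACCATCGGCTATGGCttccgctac
Kcnk1: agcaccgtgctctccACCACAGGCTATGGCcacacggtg
Kcnt1: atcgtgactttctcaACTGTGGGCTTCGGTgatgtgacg
Kcnn1: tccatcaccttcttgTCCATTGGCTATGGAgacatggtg

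All 81 pore-forming genes held a form and none of the 16 accessory genes did, while 544 of 21687 other protein-coding genes (2.51%) held one somewhere in their longest coding sequence. The threonine form was in 33 Kv, 14 Kir, 14 K2P and 5 KCa genes. The cysteine form, with TGC in place of the threonine codon, was in all 4 HCN genes; Hcn4 also matched the threonine form once, at coding base 2713. Serine took that place in 7 Kv genes of the EAG class, in Kcnj14, and in Kcnn1, Kcnn2 and Kcnn3. Of the 14 K2P genes, whose proteins carry a pair of pore loops, 11 held the form at least 2 times, and Kcnk1, Kcnk6 and Kcnk7 held it once. The windows of Kcnk3 and Kcnk15 differed at 3 of 39 bases. A match describes letters, not a measured channel. Where coding sequences are this alike, reads can be shared, and the estimated counts used here split shared reads between genes.

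Total estimated counts were 3676259 to 5432072 in paclitaxel libraries and 4585899 to 7791594 in vehicle libraries, and 3 counts corresponded to 0.385 to 0.819 CPM, counts per 1000000 of the scaled library total, across libraries. Cord markers were present: 8 neuronal genes summed to 4227 to 4479 CPM in paclitaxel libraries and 4193 to 4499 CPM in vehicle libraries, and 6 motor neuron genes to 234 to 334 CPM in paclitaxel libraries and 299 to 377 CPM in vehicle libraries. The 5 markers of sensory ganglion neurons summed to 0.37 to 1.09 CPM in paclitaxel libraries and 0 to 0.723 CPM in vehicle libraries, with Mrgprd at 0 in every library and Scn10a at 0 in all but vehicle library 1. Paclitaxel library 3 stood apart. It had the highest or lowest value of the 10 libraries for 28 of the 73 channel genes tested (38.4%, against 39.7% of all genes tested), and its marker levels are given beside the results they touch.

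Levels differed widely between members. Of the 97 coding members, 93 had counts in some library and 73 passed the filter on low counts. The other 24 had means of up to 1.56 CPM (Kcnh6), and Kcnj1, Kcnk16, Kcne1 and Kcnmb3 had no count in any library. Per kilobase of the longest annotated transcript, the leader of each subfamily was Kcna1 among Kv genes (208 CPM per kb, mean of 10 libraries), Kcnj10 among Kir genes (222), Kcnk1 among K2P genes (49.3), Kcnt1 among KCa genes (30.3), Hcn2 among HCN genes (148) and Kcnab2 among accessory genes (168). These 6 leaders were also first by the mean transcript length, while lower places moved with the length chosen. Kcnj10 encodes Kir4.1, the channel through which astrocytes and oligodendrocytes clear potassium. Kcna1 and Kcna2 encode Kv1.1 and Kv1.2, which sit beside the nodes of Ranvier in myelinated axons, and Kcnab2 encodes a cytoplasmic beta subunit of the same channels. Kcnc1, at 53.6 CPM per kb, encodes a Kv3 channel of fast-spiking neurons.

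**Figure D1:**
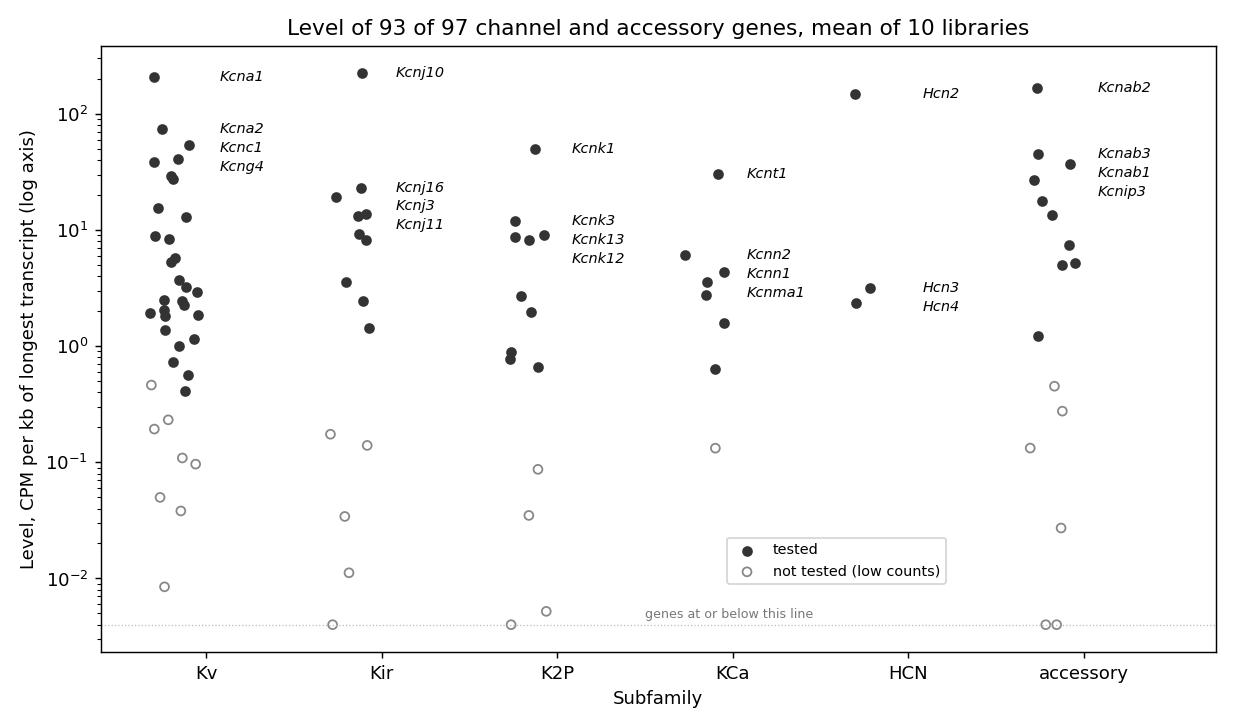
Level of 93 of the 97 coding members in CPM per kb of longest transcript, as the mean of 10 libraries on a log axis, by subfamily. Filled points passed the filter on low counts and open points did not; Kcnj10 at 222, Kcna1 at 208, Kcnab2 at 168 and Hcn2 at 148 stand at the top of their subfamilies.

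The 6 leaders differed between the groups by less than the spread of the libraries. Kcnj10 (chr1:172341210-172374085, coordinates here and below from RefSeq on GRCm38.p6) had 1196, 1209.6, 957, 1303 and 1263 CPM in paclitaxel libraries 1 to 5, against 1212, 1231, 1201, 1201 and 1247 CPM in vehicle libraries 1 to 5. Paclitaxel library 3 was the lowest of all and the groups overlapped. Its log2 fold change, paclitaxel over vehicle, was -0.039 (SE 0.062), and 0.030 without paclitaxel library 3. In that library the 5 oligodendrocyte markers averaged -0.22 from the vehicle mean on the log2 scale, against 0.033 to 0.079 in the other paclitaxel libraries, and the 6 astrocyte markers 0.058, against 0.047 to 0.10. Across the groups the oligodendrocyte markers, of which 4 were higher and 1 lower in value, summed to 20104 to 23669 CPM in paclitaxel libraries and 20542 to 22839.7 CPM in vehicle libraries, and the astrocyte markers, 5 higher and 1 lower, to 4693 to 5237 CPM in paclitaxel libraries and 4506 to 4962 CPM in vehicle libraries. Their part in Kcnj10 was not tested. Kcna1 (chr6:126636463-126645801) had 894, 872, 908, 819 and 766 CPM in paclitaxel libraries 1 to 5, against 868, 835, 807, 866 and 755 CPM in vehicle libraries 1 to 5. Library 5 was the lowest in both groups, and the ranges overlapped widely (log2 fold change 0.044, SE 0.053). Kcnab2 (chr4:152390744-152477549) had 648, 684, 610.5, 658 and 613 CPM in paclitaxel libraries 1 to 5, against 619, 710.1, 732, 641 and 659 CPM in vehicle libraries 1 to 5, again with overlapping groups (log2 fold change -0.064, SE 0.052). Kcnk1 (chr8:125993655-126030685), a weakly conducting K2P channel also called TWIK-1, had 98.7, 104, 138, 96.6 and 111 CPM in paclitaxel libraries 1 to 5, against 107, 108, 117, 105 and 118 CPM in vehicle libraries 1 to 5. Paclitaxel library 3 was the highest of the 10, paclitaxel library 4 was the lowest, and the vehicle values lay between them (log2 fold change -0.014, SE 0.081). With 1 library left out, the log2 fold change of Kcnk1 ran from -0.11 to 0.030. Kcnt1 (chr2:25863791-25918273), the sodium-activated Slack channel, had 193, 183, 235, 199.7 and 211 CPM in paclitaxel libraries 1 to 5, against 188, 192, 194, 201 and 216 CPM in vehicle libraries 1 to 5; paclitaxel library 3 was again highest, paclitaxel library 2 was lowest, and the log2 fold change was 0.044 (SE 0.063).

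Across the families, no channel gene differed between paclitaxel and vehicle cords at an adjusted p under 0.05 in edgeR's quasi-likelihood test, and the smallest adjusted p among the 73 was 0.792. None of the 13287 genes tested passed either (0%), while 806 of them had an unadjusted p under 0.05. At an unadjusted p under 0.05, 1 of the 73 was called (1.37%, Kcne1l, higher in paclitaxel cords), against a background of 6.07% of all genes tested, 2.94% higher and 3.12% lower. DESeq2 called 1 gene of all those tested at an adjusted p under 0.05 and no channel gene, and limma-voom called none. Log2 fold changes of the 73 ran from -0.29 (Kcnk4) to 0.39 (Kcnh8). Their median was -0.014, beside -0.0027 over all genes tested, and 35 were above 0 and 38 below, beside 49.1% of all genes above 0. The median size of the log2 fold change, without its sign, was 0.078 for the channel genes and 0.078 for all genes. For 61 of the 73 the 95% interval lay within a 1.5-fold difference in either direction, each gene taken by itself. For the other 12 it reached beyond 1.5-fold. The count of channel genes at an unadjusted p under 0.05 moved with single libraries: it was 6 without paclitaxel library 2 (among them Kcnd2, Kcne1l, Kcnh2, Kcnh8 and Kcnmb2), 3 each without paclitaxel library 1, vehicle library 1 or vehicle library 5, and 0 without paclitaxel library 4. Over all genes the same count moved as well, from 515 without vehicle library 3 to 1299 without vehicle library 1. The 6.07% above belongs to the fit on all libraries, so it is not the background of these counts. The share of all genes is not given here for each of these fits, so the counts are no result about channel genes. The median of the 73 turned to 0.023 without vehicle library 4 and to 0.0063 without vehicle library 3. The 97 coding members together summed to 8308 ± 249 CPM in paclitaxel cords and 8468 ± 165 CPM in vehicle cords (SD, n = 5 each).

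**Figure D2:**
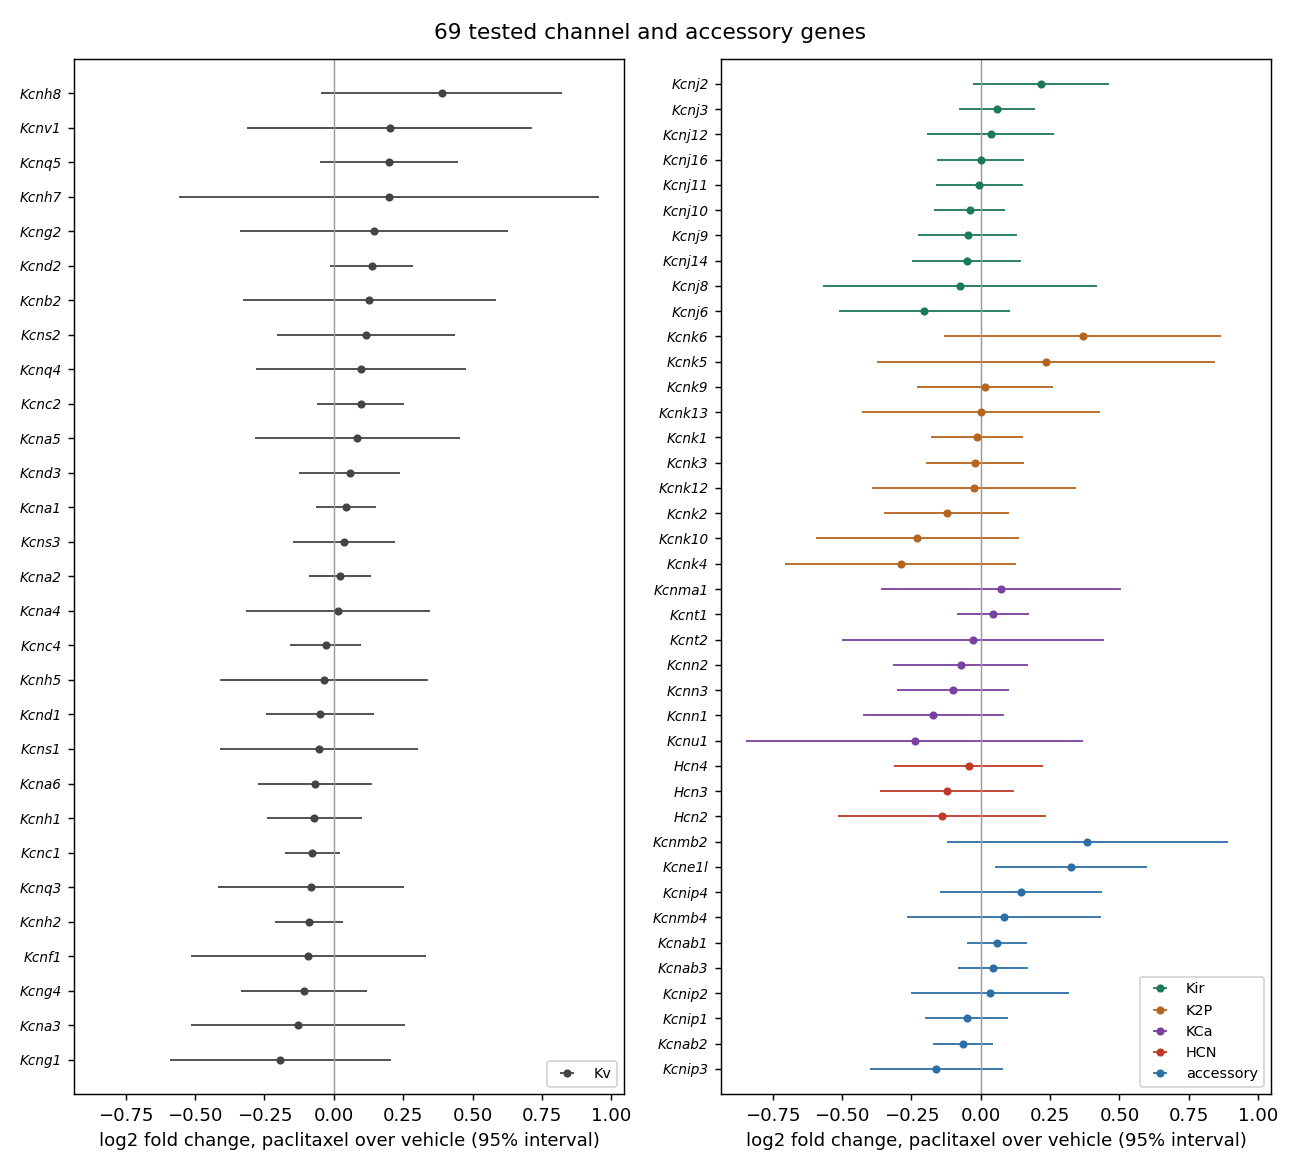
Log2 fold change, paclitaxel over vehicle, of 69 of the 73 tested genes with 95% intervals from edgeR, coloured by subfamily and sorted by value, with n = 5 libraries per group. All intervals except that of Kcne1l reach 0, and the widest belong to genes of few counts.

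Kv genes, which repolarise the membrane after each spike, summed to 4482 ± 146 CPM in paclitaxel cords and 4544 ± 132 CPM in vehicle cords (SD, n = 5 each). Of 32 tested, 17 were higher and 15 lower in value in paclitaxel cords, with a median log2 fold change of 0.018 and no call at either threshold. The median turned to -0.017 without vehicle library 5 and was 0.050 without vehicle library 4. Kcnc1, of the Kv3 class, averaged 405 ± 15.9 CPM in paclitaxel cords and 427 ± 18.7 CPM in vehicle cords (log2 fold change -0.078, SE 0.048). Kcnc2 and Kcnc4 of the same class lay on either side of 0, at a log2 fold change of 0.10 (SE 0.076) for Kcnc2 and -0.030 (SE 0.062) for Kcnc4.

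Kcnd2 (chr6:21215346-21729805) encodes Kv4.2, which carries A-type current in dorsal horn neurons of the mouse. It had 77.8, 77.1, 89.8, 78.3 and 92.8 CPM in paclitaxel libraries 1 to 5, against 82.8, 74.6, 77.0, 67.3 and 76.6 CPM in vehicle libraries 1 to 5. Paclitaxel libraries 3 and 5 were above all vehicle libraries and the other 3 lay within the vehicle range (log2 fold change 0.14, SE 0.072, edgeR p = 0.0703, adjusted p = 0.800, exact permutation p = 0.127). Kcnd3, for Kv4.3, averaged 61.3 ± 6.54 CPM in paclitaxel cords and 58.9 ± 7.72 CPM in vehicle cords (log2 fold change 0.056, SE 0.089). Kcnh8 (chr17:52602709-52979194), an EAG-class channel, had 4.69, 3.70, 5.73, 6.003 and 4.59 CPM in paclitaxel libraries 1 to 5, against 2.89, 3.49, 3.30, 3.69 and 4.87 CPM in vehicle libraries 1 to 5. It was sparse, and vehicle library 5 lay above 3 of the paclitaxel libraries. Its fold change was the largest of the 73 and came with a wide error (log2 fold change 0.39, SE 0.21, edgeR p = 0.0771, adjusted p = 0.800, exact permutation p = 0.0556).

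Kcnq3 and Kcnq5 encode subunits of the M-current channels, which hold neurons back from repeated firing. Kcnq5 (chr1:21398399-21962650) had 14.999, 21.6, 19.5, 19.4 and 17.1 CPM in paclitaxel libraries 1 to 5, against 15.004, 19.7, 14.1, 14.8 and 16.7 CPM in vehicle libraries 1 to 5. Paclitaxel library 1 and vehicle library 1 had the same value to 3 digits, paclitaxel library 2 was the highest of all, and the groups overlapped (log2 fold change 0.20, SE 0.12, edgeR p = 0.110, adjusted p = 0.811, exact permutation p = 0.127). Kcnq3 averaged 23.5 ± 4.35 CPM in paclitaxel cords and 25.0 ± 5.53 CPM in vehicle cords, with a log2 fold change of -0.082 (SE 0.16). Kcna2 averaged 860.3 ± 59.1 CPM in paclitaxel cords and 848 ± 53.9 CPM in vehicle cords (log2 fold change 0.021, SE 0.054). Kcns1, a silent subunit that modifies Kv2 channels and has been linked to pain, averaged 8.46 ± 0.865 CPM in paclitaxel cords and 9.01 ± 2.27 CPM in vehicle cords (log2 fold change -0.054, SE 0.17).

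**Figure D3:**
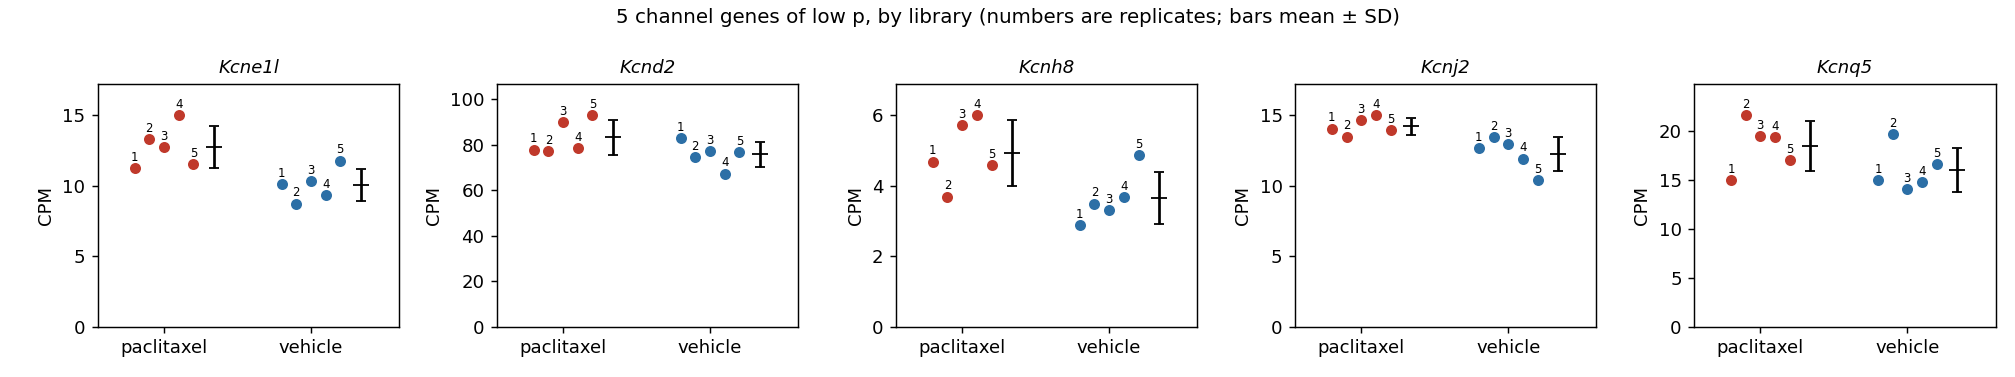
CPM in each library for 5 channel genes of low p, paclitaxel left and vehicle right, with the group mean and SD (n = 5 each) and each axis starting at 0. The groups overlap for all but Kcnj2, with paclitaxel values from 13.49 CPM and vehicle values up to 13.45 CPM.

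Accessory subunits modify the pore proteins and form no pore. Of 10 tested, 7 were higher and 3 lower in value in paclitaxel cords, with a median log2 fold change of 0.050 (0.010 without paclitaxel library 3, 0.10 without paclitaxel library 1), and all 16 summed to 1135 ± 25.0 CPM in paclitaxel cords and 1156 ± 39.0 CPM in vehicle cords (SD, n = 5 each). The one channel gene at an unadjusted p under 0.05 was Kcne1l (chrX:142304753-142306198), also called Kcne5, which encodes a small membrane subunit that alters the gating of Kv channels. It had 11.2, 13.3, 12.7, 15.006 and 11.6 CPM in paclitaxel libraries 1 to 5, against 10.1, 8.73, 10.3, 9.33 and 11.8 CPM in vehicle libraries 1 to 5. Paclitaxel libraries 2, 3 and 4 were above every vehicle library, while libraries 1 and 5 lay below vehicle library 5. The mean difference was 0.33 on the log2 scale, with an SE of 0.13 and a 95% interval of 0.053 to 0.60 (edgeR p = 0.0214, adjusted p = 0.792, exact permutation p = 0.0238), so it did not pass over all genes. Its unadjusted p stayed under 0.05 in 16 of 19 other settings. It was 0.0600 without paclitaxel library 4, 0.0559 without vehicle library 2 and 0.0567 without paclitaxel library 3 and vehicle library 4 together, and 0.00928 without vehicle library 5. Kcnmb2, a beta subunit of BK channels, averaged 4.04 ± 1.52 CPM in paclitaxel cords and 3.11 ± 0.186 CPM in vehicle cords (log2 fold change 0.38, SE 0.25, and 0.21 without paclitaxel library 5), and Kcnmb4, the main neuronal beta subunit, averaged 8.64 ± 0.861 CPM in paclitaxel cords and 8.21 ± 2.03 CPM in vehicle cords (log2 fold change 0.084, SE 0.17). Kcnab1 and Kcnab3, the other Kv beta subunits, were higher in value, at a log2 fold change of 0.057 (SE 0.052) for Kcnab1 and 0.043 (SE 0.061) for Kcnab3.

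Kcnip3 encodes DREAM, a calcium-binding subunit of Kv4 channels that also represses prodynorphin transcription in the mouse cord. It had 75.2, 79.9, 46.9, 67.1 and 80.6 CPM in paclitaxel libraries 1 to 5, against 77.0, 79.7, 77.4, 77.3 and 80.4 CPM in vehicle libraries 1 to 5. Paclitaxel library 3 was far below the other 9 libraries, and 2 of the other 4 paclitaxel libraries lay within the vehicle range or above it. The log2 fold change was -0.16 (SE 0.11), and -0.043 without paclitaxel library 3. In that library the 6 glucocorticoid response genes averaged 2.15 above the vehicle mean on the log2 scale, the 3 endothelial markers -0.69, the 4 mural cell markers -0.63 and the 6 motor neuron markers -0.35. The 8 general neuronal markers averaged 0.066 there, with the other paclitaxel libraries at -0.081 to 0.089, so the neuronal lists did not move together. There the 3 tested red blood cell genes averaged -1.10 (the other paclitaxel libraries -0.40 to 1.21, vehicle libraries -1.88 to 0.95), the 5 microglial markers -0.26 and the 5 oligodendrocyte markers -0.22. Some vehicle libraries were low as well. Vehicle library 5 averaged -0.25 for the microglial and -0.49 for the endothelial markers, and vehicle library 1 averaged -0.21 for the motor neuron markers. Across the groups the glucocorticoid response genes summed to 127 to 915 CPM in paclitaxel libraries and 143 to 426 CPM in vehicle libraries, and the endothelial markers to 65.8 to 126 CPM in paclitaxel libraries and 72.2 to 120.2 CPM in vehicle libraries. The mural cell markers summed to 58.8 to 92.8 CPM in paclitaxel libraries and 74.5 to 93.5 CPM in vehicle libraries. The part of these in the channel values was not tested.

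Kir genes set the resting potential and buffer potassium in glia. They summed to 1539 ± 133 CPM in paclitaxel cords and 1570.0 ± 12.3 CPM in vehicle cords (SD, n = 5 each). Most of this was Kcnj10, at 1186 ± 135 CPM in paclitaxel cords and 1218 ± 20.3 CPM in vehicle cords. The Kir sum was 1314 CPM in paclitaxel library 3 and 1550 to 1651 CPM in the other paclitaxel libraries. Of 10 Kir genes tested, 4 were higher and 6 lower in value, with a median log2 fold change of -0.022 that turned to 0.023 without paclitaxel library 3. Kcnj2 (chr11:111066164-111076825), the strong rectifier Kir2.1, had 14.1, 13.5, 14.6, 15.006 and 13.9 CPM in paclitaxel libraries 1 to 5, against 12.7, 13.5, 13.0, 11.9 and 10.4 CPM in vehicle libraries 1 to 5. All paclitaxel libraries lay above all vehicle libraries, but the lowest of them had 13.49 CPM and the highest vehicle library 13.45 CPM. It was the 1 member of 73 whose groups did not overlap (1.37%, against a background of 1.09% of all genes tested). The exact permutation p was 0.00794, the smallest that all assignments of 5 libraries against 5 can give and unadjusted, for 1 of 6 genes picked by their p, beside an edgeR p = 0.0780. The edgeR test, which also models counting noise, gave an adjusted p = 0.800 (log2 fold change 0.22, SE 0.12). Kcnj3, Kcnj6 and Kcnj9 encode the GIRK channels that opioid and GABA-B receptors open. Kcnj6 averaged 12.02 ± 2.09 CPM in paclitaxel cords and 14.0 ± 2.899 CPM in vehicle cords (log2 fold change -0.20, SE 0.15, and -0.10 without vehicle library 4), Kcnj3 averaged 103 ± 7.45 CPM in paclitaxel cords and 98.6 ± 7.17 CPM in vehicle cords (log2 fold change 0.059, SE 0.067), and Kcnj9 averaged 35.3 ± 3.19 CPM in paclitaxel cords and 36.5 ± 3.22 CPM in vehicle cords (log2 fold change -0.047, SE 0.087). Kcnj16, for Kir5.1, which joins Kir4.1 in glia, averaged 85.5 ± 7.30 CPM in paclitaxel cords and 85.7 ± 8.83 CPM in vehicle cords.

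K2P genes encode background leak channels. They summed to 277 ± 19.2 CPM in paclitaxel cords and 283 ± 12.5 CPM in vehicle cords (SD, n = 5 each), and of 10 tested 4 were higher and 6 lower in value, with a median log2 fold change of -0.018 that turned to 0.020 without vehicle library 3 and was -0.046 without vehicle library 5. The lowest p values were those of Kcnk6 (log2 fold change 0.37, SE 0.24), Kcnk4 (-0.29, SE 0.20) and Kcnk10 (-0.23, SE 0.18), all low in level. Kcnk4 and Kcnk10, with Kcnk2, encode TRAAK, TREK-2 and TREK-1, the leak channels opened by stretch, heat and lipids. Kcnk2 averaged 27.9 ± 4.87 CPM in paclitaxel cords and 30.2 ± 3.17 CPM in vehicle cords, with a log2 fold change of -0.12 (SE 0.11), so all 3 of these genes had lower mean values in paclitaxel cords, and none passed. With 1 library left out Kcnk4 ran from -0.41 to -0.20, Kcnk10 from -0.29 to -0.12 and Kcnk2 from -0.21 to -0.060. Kcnk3, for the acid-sensitive channel TASK-1, averaged 44.9 ± 2.17 CPM in paclitaxel cords and 45.5 ± 5.82 CPM in vehicle cords, and Kcnk13 averaged 27.9 ± 8.30 CPM in paclitaxel cords and 28.01 ± 2.98 CPM in vehicle cords. Kcnk18, for TRESK, a channel of sensory ganglion neurons, had 0 counts in all 5 paclitaxel libraries and in 4 vehicle libraries, and 1 count in vehicle library 1; a count of 0 allows up to 3 counts, which is 0.385 to 0.819 CPM depending on the library.

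KCa genes summed to 320.2 ± 27.3 CPM in paclitaxel cords and 318 ± 9.42 CPM in vehicle cords (SD, n = 5 each); of 7 tested, 2 were higher and 5 lower in value, with a median log2 fold change of -0.073, which was -0.011 without paclitaxel library 2 and -0.12 without vehicle library 2. Kcnn1, Kcnn2 and Kcnn3 encode the SK channels that make the medium afterhyperpolarisation. Kcnn1 averaged 16.7 ± 3.16 CPM in paclitaxel cords and 18.8 ± 1.70 CPM in vehicle cords (log2 fold change -0.17, SE 0.12). The log2 fold change was -0.073 (SE 0.12) for Kcnn2 and -0.10 (SE 0.10) for Kcnn3, so the 3 tested SK genes had lower mean values and none passed. Their sizes moved with single libraries: Kcnn1 was -0.076 and Kcnn2 -0.15 without paclitaxel library 3, Kcnn2 was -0.011 without paclitaxel library 2, and Kcnn3 was -0.057 without paclitaxel library 1. Kcnma1, the BK pore gene, averaged 43.9 ± 11.3 CPM in paclitaxel cords and 42.2 ± 7.75 CPM in vehicle cords (log2 fold change 0.072, SE 0.19), and the sparse Kcnu1, known from sperm, averaged 2.04 ± 0.484 CPM in paclitaxel cords and 2.41 ± 0.856 CPM in vehicle cords (log2 fold change -0.24, SE 0.29).

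The 4 HCN genes carry the hyperpolarisation-activated current. They had no call at either threshold and a median log2 fold change of -0.083, which was -0.0081 without paclitaxel library 3 and 0.024 without both that library and vehicle library 4. Per kilobase, Hcn2 at 148 stood far above Hcn3 at 3.15 and Hcn4 at 2.34 CPM per kb. Hcn2 (chr10:79716634-79736108), the slower cAMP-responsive subunit, had 483, 534, 277, 486 and 467 CPM in paclitaxel libraries 1 to 5, against 444.3, 519, 547, 495 and 468 CPM in vehicle libraries 1 to 5. Paclitaxel library 3 was far below the other 9 libraries, and the other 4 paclitaxel libraries lay inside the vehicle range. The log2 fold change was -0.14 (SE 0.16), and -0.0032 without that library, whose marker levels are given above with Kcnip3.

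Hcn3 (chr3:89146775-89160284) had 11.02, 12.6, 12.5, 12.8 and 11.6 CPM in paclitaxel libraries 1 to 5, against 12.1, 13.5, 12.8, 13.5 and 13.8 CPM in vehicle libraries 1 to 5. Paclitaxel libraries 1 and 5 lay below the vehicle range, and the other 3 lay within it (log2 fold change -0.12, SE 0.12). Hcn4 (chr9:58822949-58863175), the pacemaker subunit of the heart, had 14.1, 17.6, 12.9, 14.5 and 11.4 CPM in paclitaxel libraries 1 to 5, against 13.6, 14.3, 12.8, 17.6 and 14.5 CPM in vehicle libraries 1 to 5. Paclitaxel library 2 and vehicle library 4 were the highest, paclitaxel library 5 was the lowest, and the groups overlapped (log2 fold change -0.044, SE 0.13).

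**Figure D4:**
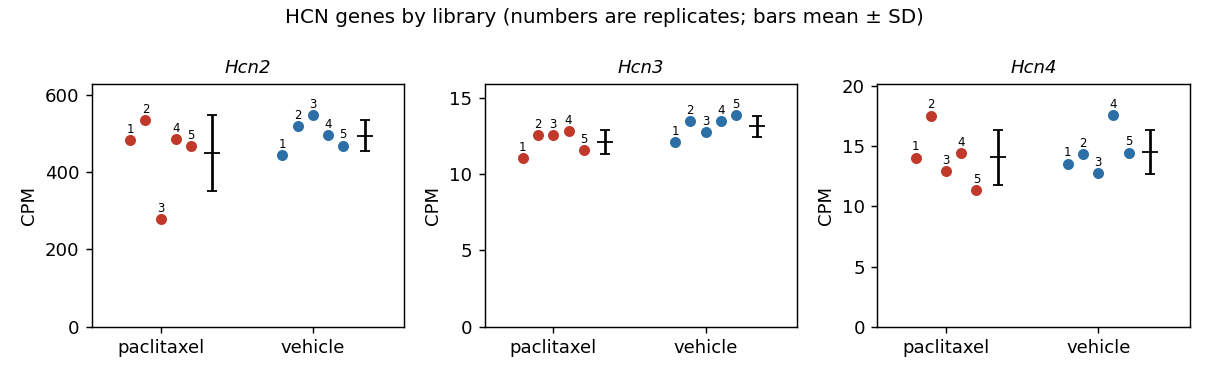
CPM of Hcn2, Hcn3 and Hcn4 in each library, paclitaxel left and vehicle right, with the group mean and SD (n = 5 each) and each axis starting at 0. The groups overlap in every panel, and paclitaxel library 3 is the low point of Hcn2 at 277 CPM.

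Auxiliary, anchoring and regulatory proteins that work with these channels but do not match the symbol rule were followed as a list of 28 genes. Of the 24 tested, 16 were higher and 8 lower in value in paclitaxel cords, with a median log2 fold change of 0.019; 1 had an unadjusted p under 0.05, against 6.07% of all genes, and none passed. Epb41l3 was not analysed here, and Lrrc26, Lrrc52 and Kcnrg did not pass the filter on low counts. Abcc9, the sulphonylurea receptor of KATP channels in vascular mural cells, averaged 19.4 ± 3.41 CPM in paclitaxel cords and 16.2 ± 1.56 CPM in vehicle cords (log2 fold change 0.27, SE 0.12, edgeR adjusted p = 0.792). Its pore partner Kcnj8 averaged 3.49 ± 1.14 CPM in paclitaxel cords and 3.75 ± 0.478 CPM in vehicle cords (log2 fold change -0.075, SE 0.24), while all 4 mural cell markers were lower in value, and their part in Abcc9 was not tested. Adam22, an LGI1 receptor at Kv1 sites on axons, averaged 252.3 ± 8.33 CPM in paclitaxel cords and 236 ± 6.02 CPM in vehicle cords (log2 fold change 0.10, SE 0.049). Dlg4, for the scaffold PSD-95, averaged 242 ± 9.56 CPM in paclitaxel cords and 258 ± 15.5 CPM in vehicle cords (log2 fold change -0.095, SE 0.053), and Dpp10, a Kv4 auxiliary subunit, averaged 97.03 ± 7.97 CPM in paclitaxel cords and 89.3 ± 8.73 CPM in vehicle cords (log2 fold change 0.12, SE 0.074).

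The spread between libraries was followed gene by gene. The SD of log2 CPM was larger in the paclitaxel group for 47 of the 73 genes (64.4%, against 60.2% of all genes tested), and for 39 (53.4%, against 48.5%) with paclitaxel library 3 left out. Among the 25 members with a mean of at least 50 CPM, Hcn2 had the highest coefficient of variation, 16.0%. Vehicle library 3 was the highest or lowest library for 22 of the 73 (30.1%, against 23.6% of all genes). Vehicle library 2 was so for 4 (5.48%, against 15.3% of all genes). Genes low in paclitaxel library 3 included Hcn2, Kcng4, Kcnip3 and Kcnj10, and genes high in it included Kcnc2, Kcnip4, Kcnt2, Kcnk1 and Kcnt1, so it was not low or high throughout: it held the lowest value for 16 genes and the highest for 12.

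**Figure D5:**
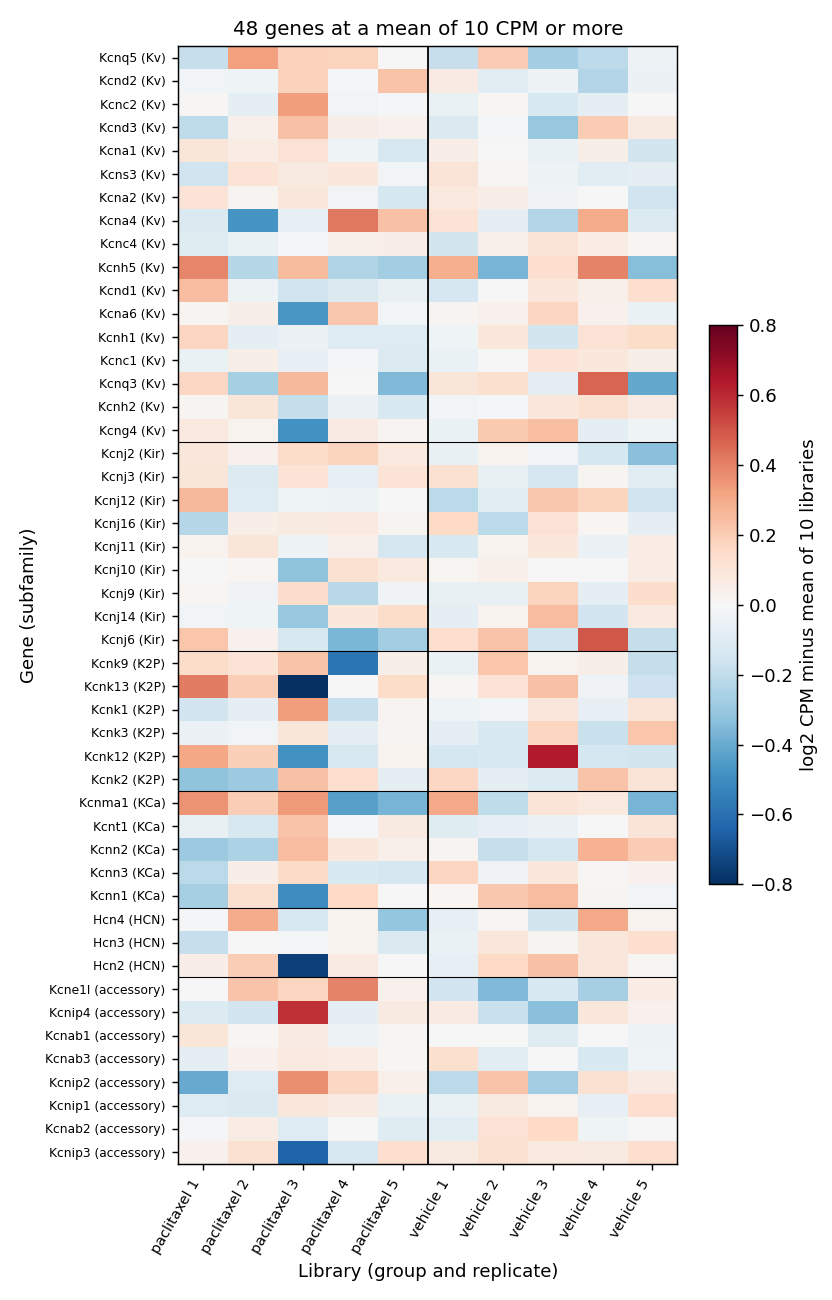
Log2 CPM of 48 members with a mean of at least 10 CPM in each library, relative to the gene's mean over the 10 libraries, with paclitaxel libraries left of vehicle libraries. The column of paclitaxel library 3 holds both strong negative values, as for Hcn2, and strong positive values, as for Kcnip4.

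Several members are neighbours in the genome at unlike levels. Kcnj9 and Kcnj10 lie 11.9 kb apart on chromosome 1, at 9.30 and 222 CPM per kb. On chromosome 6, Kcna1 at 208 lies between Kcna5 at 1.85 and Kcna6 at 29.4 CPM per kb, and on chromosome 3, Kcna2 at 73.7 lies between Kcna3 at 2.93 and Kcna10 at 0.0381. Kcnj16 at 23.1 and Kcnj2 at 2.43 CPM per kb lie 38.2 kb apart on chromosome 11. The span of Kcnmb1 lies within that of Kcnip1 on that chromosome, and the strand setting of the counting is not stated, so counts of these 2 genes are uncertain. The same holds where Kcnd3 overlaps the noncoding Kcnd3os, at 0.162 CPM per kb. It also holds where Kcnmb4 overlaps Kcnmb4os1 and Kcnmb4os2, at 0.0263 and 0.614 CPM per kb. Of the 4 noncoding RNAs, Kcnq1ot1, transcribed from within Kcnq1, was the one that passed the filter. It averaged 38.8 ± 7.16 CPM in paclitaxel cords and 38.6 ± 5.70 CPM in vehicle cords (SD, n = 5 each), while Kcnq1 itself averaged 0.33 CPM over the 10 libraries. Whether reads of this pair were told apart by strand is likewise not stated, so their counts are uncertain too.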

How the data were processed

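Per the labels, mRNA libraries of mouse lumbar spinal cord were sequenced for 5 paclitaxel and 5 vehicle samples. The deposited values are estimated counts per gene and library, unscaled, which the authors made from aligned reads; the submitters' processing notes name STAR, RSEM, edgeR 4.2.0 and build mm10, with no annotation, filter or strand setting stated. Estimated counts (5.04% not whole) were rounded. In edgeR 4.0.16 (R 4.3.3), genes were filtered with filterByExpr (minimum count 10, minimum total 15), scaled by TMM and fitted with the robust quasi-likelihood test on all 13287 genes that passed, with Benjamini-Hochberg adjustment over all of them and a two-sided threshold of 0.05. CPM used TMM-scaled totals, with a prior count of 2 on the log2 scale. Each SE is the size of the log2 fold change over the root of F. Exact two-sided permutation tests over all assignments were made for 6 genes. The common biological coefficient of variation was 8.23%. Intervals cover the spread of these libraries.

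Levels per kb used the longest GENCODE M21 transcript. Coordinates are RefSeq GRCm38.p6. The fit was tested on simulated data. Alternatives were other scalings and filters, DESeq2 1.42.0, limma 3.58.1, a replicate block, libraries left out and other transcript lengths; the length matched to the deposited RefSeq identifiers was added after seeing the data. Members, lists and tests were chosen with earlier results of these data known. Named genes were, by subfamily, the 4 of lowest p, the 3 of highest level per kb and a list of channels known from cord, glia or pain work, with 4 partner genes; other genes named were chosen after their values were seen. Counts, sums and medians cover all members, 4 of which are not reported here by name. Replicate numbers were not taken as pairs, because same-numbered samples did not deviate together throughout.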

Additional observations from a re-analysis of the deposited data

Results flagged for a closer look

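In each group of 5 libraries, a library was picked out when its gap to the nearest other library, over the range of the group, passed Dixon's critical value of 0.71. Over 150 groups, 15 were picked out, and for a single group chance alone gives about 1 in 20. The groups share the same 10 libraries, and the share picked out over all genes was not computed, so the count is no result about channel genes. Paclitaxel library 3 was the highest or lowest library for 38.4% of the channel genes and 39.7% of all genes tested. Of these, 11 were in paclitaxel libraries, with 6 in library 3, 4 in library 1 and 1 in library 4, and 4 were in vehicle libraries.

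Paclitaxel library 3 was low for Hcn2, at 277 CPM with the other 4 at 467 to 534, and for Kcng4, a silent Kv6 subunit, at 110.0 CPM with the others at 156 to 162. It was high for Kcnc2, a Kv3 channel gene, at 81.9 CPM with the others at 61.7 to 65.4. Kcnip4, a Kv4 subunit gene, stood at 63.5 CPM in that library and at 37.9 to 44.4 in the others, and Kcnt2, the sodium-activated Slick channel gene, at 14.0 CPM and at 6.65 to 8.73. The summed CPM of the KCa genes was 368 there and 302 to 316 in the others.

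Paclitaxel library 1 was high for Kcnd1 at 33.0 CPM with the others at 24.8 to 27.0, for Kcnh1 at 47.1 CPM with the others at 38.7 to 40.3, and for Kcnj12 at 24.4 CPM with the others at 18.9 to 20.2. It was low for Kcnj16, at 72.7 CPM with the others at 86.8 to 90.0. Paclitaxel library 4 was low for Kcnk9, the TASK-3 leak channel gene, at 21.8 CPM with the others at 34.1 to 38.6.

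Among vehicle libraries, library 1 was low for Kcng2 at 1.99 CPM with the others at 5.59 to 6.29. Library 4 was high for Kcnk10 at 9.11 CPM with the others at 6.41 to 6.99, and library 3 was high for Kcnk12 at 26.2 CPM with the others at 15.1 to 15.4. The summed CPM of the Kv genes was 4315 in library 5 and 4543 to 4632 in the others.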

How the results depend on the processing

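No channel gene passed an adjusted p of 0.05 under any of the 19 alternatives. There the smallest adjusted p of a named gene was 0.449, for the partner gene Dpp10. Among the named channel genes it was 0.454, for Kcnd2 in edgeR without vehicle library 1. Channel genes at an unadjusted p under 0.05 numbered 1 in the values reported, 2 with no filter (both higher, Kcne1l and Kcnk15, the second with 3 counts in all), 2 with limma-voom quality weights (1 of them lower) and 0, with 0 higher, when paclitaxel library 3 and vehicle library 4 were both left out. Leaving out single libraries gave 0 to 6, with 0 to 4 higher and 0 to 2 lower, without the share of all genes in each fit beside them. Over all genes the count at an unadjusted p under 0.05 was 515 (without vehicle library 3) to 1299 (without vehicle library 1), and 508 with both left out; at an adjusted p, 1 gene passed with DESeq2. The median of the channel genes ran from -0.021 to 0.023 over the left-out libraries, and the HCN median from -0.14 to -0.0081, turning to 0.024 with both left out.

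With the replicate number as a block, the count of channel genes at an unadjusted p under 0.05 was 1 and that of all genes at an adjusted p was 1. Same-numbered libraries had correlations of 0.082, 0.14, -0.10, 0.0070 and 0.13, and numbers 2 and 5 matched their own number best, so the block was not taken as a pairing.

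Of 42 named genes, 29 kept the sign of their log2 fold change in all 19 alternatives and 13 did not; of the 29, 17 moved by over 1.5 times in size with 1 library left out. Kcnk13 turned to -0.017 under the block and -0.051 with limma-voom, Kcns1 to 0.010 with limma-voom and 0.011 with quality weights, Kcnj10 to 0.0019 and Kcnma1 to -0.00030 with quality weights, and Kcnj16 to -0.00019 with no filter. With both libraries left out, Hcn4 was 0.053, Kcnj10 0.023, Kcnj16 -0.014, Kcns1 0.020 and Kcnt1 -0.0075. Leaving out single libraries turned Hcn4 (-0.14 to 0.031), Kcna2 (-0.015 to 0.058), Kcnd3 (-3.4e-05 to 0.12), Kcnj10 (-0.072 to 0.030), Kcnj16 (-0.047 to 0.056), Kcnk1 (-0.11 to 0.030), Kcnk13 (-0.10 to 0.17), Kcnk3 (-0.060 to 0.043), Kcnma1 (-0.018 to 0.17), Kcnmb4 (-0.028 to 0.17), Kcnq3 (-0.20 to 0.035), Kcns1 (-0.20 to 0.070) and Kcnt1 (-0.010 to 0.085). The cause was not tested.

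Levels per kb by the mean transcript length moved by over 1 SD for 31 of 39 genes, and by the length matched to the deposited RefSeq identifiers for 6 of 39. The 24 coding genes under the filter were not tested, so a difference in them was not detectable at this depth.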
